A study of Mus musculus with 21 samples.

Results

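Messenger RNA was followed for 9 mouse genes of the mesenchymal matrix and cytoskeleton: the fibulins Fbln1, Fbln2 and Fbln5, the adhesion protein Tgfbi, fibronectin (Fn1), periostin (Postn), vimentin (Vim), osteonectin (Sparc) and lysyl oxidase (Lox). They were taken by symbol from count tables that list 48321 symbols, of which 14311 were tested, and all 9 were among those tested. Fbln5 and Tgfbi were chosen by their measured rise in every line carrying a TWIST1 dimer, so their difference between the dimer lines and the parental line is described here and not tested. The same holds for the other 7 genes in that comparison.

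The cells were embryoid bodies, floating aggregates of differentiating embryonic stem cells, taken on day 3. All were derived from A2loxCre cells (strain given as C57BL/6), in which a coding sequence can be placed at a fixed site behind a promoter that doxycycline switches on. There were 7 groups of 3 samples. The parental group was A2loxCre without a construct, treated with doxycycline. The TWIST1 monomer line was sampled without doxycycline (uninduced) and with it (induced). The other 4 groups were doxycycline-treated lines with an integrated TWIST1 homodimer, or with TWIST1 joined to TCF3, TCF4 or TCF12. Constructs were induced for 16 h before collection. The labels name 1 line per construct, so a construct and the line that carries it cannot be told apart. Within the monomer line, TWIST1 induction and doxycycline itself cannot be told apart either. Nothing in the labels says whether samples with different numbers came from separate cultures, so p-values measure the spread between these samples, which may be technical.

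TWIST1 belongs to the basic helix-loop-helix factors, which pair up to bind short DNA sequences called E-boxes. Its partner can be a second TWIST1 or an E-protein such as TCF3, TCF4 or TCF12. It acts in early mesoderm and in the neural crest, and is known for its part in the change of epithelial cells into migrating mesenchyme. Mesenchymal cells surround themselves with the proteins studied here. Fibulins are built into elastic fibres and basement membranes, and lysyl oxidase cross-links collagen and elastin. Fibronectin is the fibrous scaffold that cells grip through integrins, while Tgfbi, periostin and osteonectin are secreted proteins that tune adhesion. Vimentin is the intermediate filament of mesenchymal cells.

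To show what lies at the start of the genes that lead each pattern described below, the promoters of Fbln5 and Tgfbi (raised with the dimers), Vim (raised with the heterodimers) and Sparc (highest in the monomer line) are given. Each is the 300 bases from 250 before to 50 after the RefSeq start site (GRCm38.p6), 5′ to 3′ on the gene's strand. Capitals mark each E-box, the 6 letters CANNTG, which read the same on both strands. The windows are chr12:101819070-101819369 (minus strand) for Fbln5, chr13:56609336-56609635 (plus) for Tgfbi, chr2:13574061-13574360 (plus) for Vim and chr11:55420031-55420330 (minus) for Sparc.
Fbln5: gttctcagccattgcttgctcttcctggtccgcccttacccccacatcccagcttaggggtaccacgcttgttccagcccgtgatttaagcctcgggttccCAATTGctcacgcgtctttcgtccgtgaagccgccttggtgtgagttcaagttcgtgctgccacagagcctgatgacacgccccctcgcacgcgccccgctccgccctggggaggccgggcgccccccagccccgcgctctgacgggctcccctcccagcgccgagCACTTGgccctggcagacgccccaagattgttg
Tgfbi: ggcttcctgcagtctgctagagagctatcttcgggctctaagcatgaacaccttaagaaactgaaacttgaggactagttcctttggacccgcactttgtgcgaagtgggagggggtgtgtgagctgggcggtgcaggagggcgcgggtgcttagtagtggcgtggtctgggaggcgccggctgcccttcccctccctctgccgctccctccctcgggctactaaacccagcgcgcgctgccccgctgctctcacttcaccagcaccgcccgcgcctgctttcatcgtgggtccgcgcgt
Vim: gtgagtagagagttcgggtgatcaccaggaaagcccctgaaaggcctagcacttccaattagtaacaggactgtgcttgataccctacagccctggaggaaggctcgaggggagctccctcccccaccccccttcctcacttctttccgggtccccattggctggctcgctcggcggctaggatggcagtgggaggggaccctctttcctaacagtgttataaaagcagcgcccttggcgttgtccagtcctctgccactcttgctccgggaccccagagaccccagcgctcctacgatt
Sparc: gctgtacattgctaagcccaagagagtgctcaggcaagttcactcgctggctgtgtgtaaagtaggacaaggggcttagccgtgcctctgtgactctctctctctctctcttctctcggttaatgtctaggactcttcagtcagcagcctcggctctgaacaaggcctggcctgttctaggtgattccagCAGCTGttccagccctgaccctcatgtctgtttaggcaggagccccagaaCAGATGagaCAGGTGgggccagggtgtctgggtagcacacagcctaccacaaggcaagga

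The Fbln5 window held CAATTG, 149 bases before the start. It also held CACTTG at position 18 after the start. The last bases of this window were found in no annotated Fbln5 transcript, whereas those at the second Fbln5 start site were. In the Sparc window CAGCTG began 60 bases before the start, with CAGATG at 10 bases before and CAGGTG at 1 base before. The Tgfbi and Vim windows held none. RefSeq promoters were at hand for 7 of the 9 genes, with 10 start sites in all. An E-box was found at 5 of the 10 sites, belonging to 4 genes, and 72.3% of the 32851 mouse promoters of the same length hold at least 1. In Fbln1 the letters were CACGTG, 81 bases before the first start. A second Fbln1 match, CAGCTG, was at position 12 after it. Fbln2 had CATCTG, 161 bases before its start. Neither Postn start site had an E-box, nor had the second Fbln5 start site. A pair of E-boxes with exactly 5 bases between them was at 0 of the 10 sites and is in 0.767% of all promoters. A match is only a description of these letters, and their absence from a window says nothing of sites elsewhere.

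Total counts ran from 6648842 to 15999693 per sample, so that 3 counts, the smallest level taken as measurable, correspond to 0.188 to 0.451 CPM of the plain total. CPM elsewhere, the usual unit of relative abundance, is the count scaled by library size and TMM factor. Twist1 itself was 8.11 ± 0.79 CPM (SD, n = 3) in the parental group and 613 ± 32 in the induced monomer line. It was 182 ± 17 with the homodimer and 55.2 ± 2.4, 39.4 ± 2.9 and 42.3 ± 5.3 in the TCF3, TCF4 and TCF12 dimer libraries. Of the partner genes, Tcf4 rose in its own line by 2.80 ± 0.15 on the log2 scale (adjusted p = 2.2e-10). In the libraries labelled TCF3 dimer, Tcf3 itself did not pass (log2 difference from the parental group -0.12, adjusted p = 0.24), and neither did Tcf12 in those labelled TCF12 dimer (0.50, adjusted p = 0.055). Tcf12 did pass in the libraries labelled TCF3 dimer, at 104 against 66.1 CPM in the parental group (log2 0.66 ± 0.19, adjusted p = 0.012). It was also above the parental mean in those labelled TCF4 dimer, at 90.4 ± 4.8 CPM (0.45, adjusted p = 0.13). In those labelled TCF12 dimer it was 93.1 ± 35 CPM, a wide spread. The names TCF3 dimer and TCF12 dimer are therefore the labels' names throughout. Sample 1 labelled TCF12 dimer stood apart from its group, with the lowest TMM factor of its group (0.865, against 1.02 in both others), and values without it are given where a call or direction turns on it. In a bulk sample, fewer cells that express a gene and less RNA per cell cannot be told apart.

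Fbln5 (chr12:101746565-101819119, minus strand) encodes a fibulin that ties elastin to the cell surface. It was nearly unread in the parental and uninduced monomer samples. The 3 parental samples had 1, 1 and 6 counts (0.11, 0.11 and 0.61 CPM), and the uninduced monomer samples had 3, 2 and 1. The induced monomer samples reached 2.39, 1.91 and 1.40 CPM. All 12 dimer samples lay far above these. They were at 18.0, 14.7 and 17.0 CPM with the homodimer, 23.6, 15.2 and 18.1 with the TCF3 dimer, 17.7, 16.0 and 15.2 with the TCF4 dimer, and 29.6, 30.8 and 22.0 with the TCF12 dimer. Relative to the parental group, summed counts were 58.3 times higher with the homodimer (95% exact counting interval 29.3 to 136) and 67.3 times with the TCF3 dimer (33.9 to 156). The ratio was 57.3 (28.9 to 133) with the TCF4 dimer and 96.4 (48.7 to 224) with the TCF12 dimer. These intervals cover counting error only. Fbln5 was chosen for this rise, so they are a description and no test of it. Of the 8 parental counts 6 came from sample 3, and without it the fitted log2 differences moved from 5.81 to 7.10 (homodimer), 6.01 to 7.29 (TCF3 dimer), 5.79 to 7.08 (TCF4 dimer) and 6.54 to 7.83 (TCF12 dimer). The induced monomer samples had the most Twist1 of any group and less Fbln5 than every dimer sample. How far Twist1 counts measure the level of each construct was not tested.

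Tgfbi (chr13:56609586-56639359, plus strand), a secreted protein that links collagen to integrins, was low but measurable in the parental samples at 0.87, 1.19 and 1.21 CPM. In the uninduced monomer samples it stood at 4.88, 5.02 and 4.49 CPM, without any doxycycline. The induced monomer samples were at 20.8, 19.8 and 16.4 CPM, and the homodimer samples at 20.9, 20.3 and 20.6, so these 2 groups overlapped. Among the heterodimers, the TCF3 dimer samples were at 47.0, 33.3 and 38.5 CPM, the TCF4 dimer samples at 25.8, 21.04 and 18.4, and the TCF12 dimer samples at 40.1, 32.9 and 30.1. Relative to the parental group the log2 difference ran from 4.22 (homodimer) to 5.16 (TCF3 dimer), against 5.79 (TCF4 dimer) to 6.54 (TCF12 dimer) for Fbln5. The induced monomer line was 2.69 above the parental group in Fbln5, or 3.97 without parental sample 3, and 4.10 in Tgfbi. Tgfbi thus stood near its homodimer level in the induced monomer line, while Fbln5 was 3.12 below its homodimer level on the log2 scale.

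**Figure D1:**
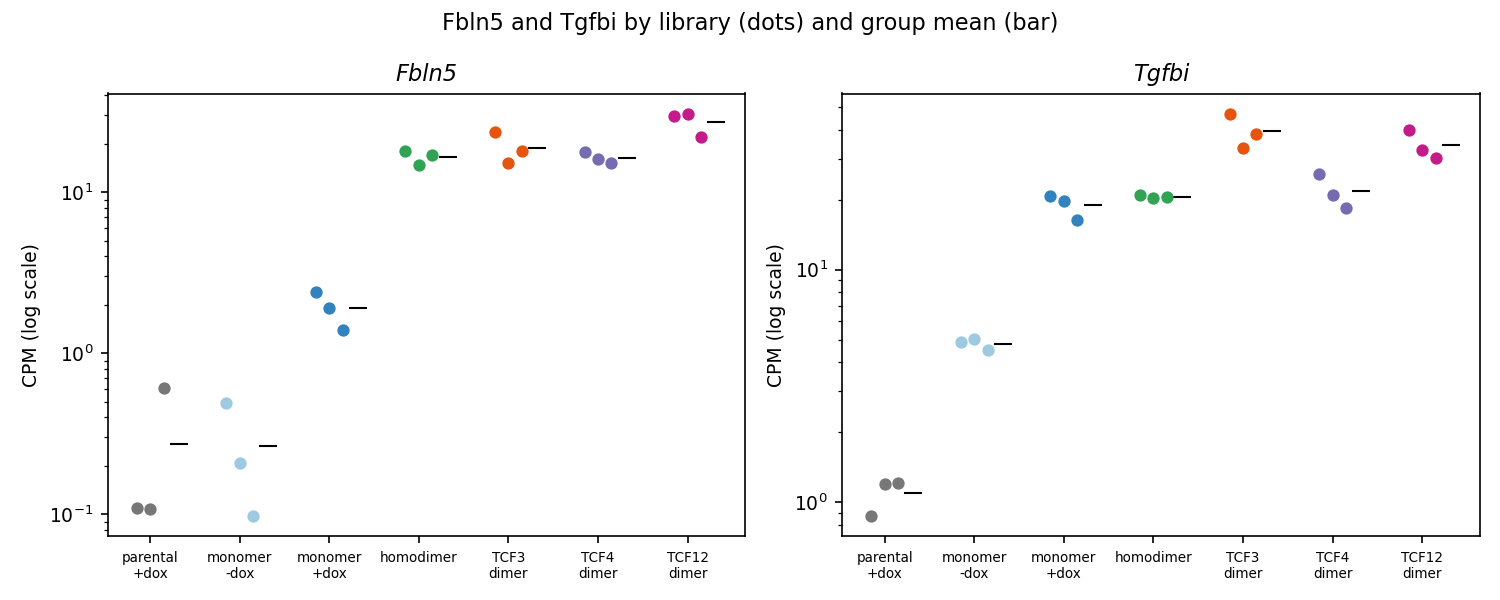
Fbln5 and Tgfbi in each of the 21 libraries (dots), with the group mean (bars), in CPM on a log axis for the 7 groups. Fbln5 is at 1.40 to 2.39 CPM in the induced monomer samples and at or above 14.7 in every dimer sample, whereas Tgfbi in the induced monomer samples overlaps the homodimer samples.

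Induction within the monomer line, the comparison of a line with itself, was tested for all 9 genes. Fbln5, Tgfbi and Fbln1 rose and no member fell, 3 of 9 where 2.00% of all tested genes passed in either direction (1.52% higher, 0.475% lower). Fbln5 and Tgfbi had been chosen by their rise with the TWIST1 dimers, so the count of 3 is not independent of that choice. Of the other members only Fbln1 passed. Tgfbi rose by 1.99 ± 0.17 on the log2 scale (SE, adjusted p = 8.3e-07) and Fbln5 by 2.96 ± 0.56 (adjusted p = 0.0048). For Fbln5 this rests on 51 counts against 6, a ratio of 8.18 (95% exact counting interval 3.51 to 23.3). Fbln1 rose 1.42-fold, from 32.05, 31.05 and 32.04 CPM to 43.2, 48.9 and 42.5, with an adjusted p of 0.0079. That call was lost without uninduced sample 2 (adjusted p = 0.056) or without induced sample 2 (adjusted p = 0.067). Vim (log2 difference 0.18) and Lox (0.75) were higher in all 3 induced samples but did not pass, with adjusted p of 0.88 and 0.65. Sparc (-0.02), Fbln2 (-0.01) and Fn1 (0.06) differed by less than their standard errors, and Postn (-0.28) did not pass. The median of the 9 was 0.18, against -0.01 over all genes tested.

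Already without induction, the monomer line differed from the parental line in several of these genes. Of the 7 members tested in this comparison, Sparc, Postn and Fbln2 were higher and Fbln1 lower, 4 of 7 where 19.9% of all genes passed (10.5% higher, 9.43% lower). Sparc was 2.79-fold higher (log2 1.48 ± 0.10, adjusted p = 2.7e-09) and Postn 2.27-fold higher (1.19 ± 0.28, adjusted p = 0.0048). Fbln2 differed by 0.76 ± 0.24 (adjusted p = 0.031), and this call was lost when any of 5 samples of the 2 groups was left out (adjusted p up to 0.12). Fbln1 was lower by 0.53 (SE 0.10, adjusted p = 0.00073). Fn1 (0.31) and Vim (-0.23) did not pass, both with an adjusted p of 0.31. They did pass without TCF12 sample 1 (adjusted p of 0.0048 and 0.03), which made 6 members, where 5312 genes passed instead of 2854. With only these groups fitted Fn1 and Vim passed as well (0.0068 and 0.0062). The parental line received doxycycline and the uninduced line did not, so line and treatment cannot be told apart here. With induction, Sparc (1.46), Postn (0.91, adjusted p = 0.03) and Fbln2 (0.75, adjusted p = 0.031) were again higher than in the parental line, 3 of 7 where 20.0% of all genes passed (10.8% higher, 9.22% lower). The Postn call there was lost without any of 5 samples and the Fbln2 call without any of 4, with adjusted p up to 0.14 and 0.13. Fbln1 was level with the parental group once induced (-0.03, adjusted p = 0.89). Fn1 did not pass (0.37, adjusted p = 0.21). It did without TCF12 sample 1 (adjusted p = 0.00089), which made 4 members, where 5073 genes passed instead of 2861. With only these groups fitted Fn1 passed too (1e-04).

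Vimentin and lysyl oxidase set the TCF3 and TCF12 dimer libraries apart. Vim (chr2:13574311-13582826, plus strand) was at 102, 89.1 and 97.5 CPM in the parental samples and at 95.9, 93.6 and 89.7 in the induced monomer samples. With the homodimer it was 110, 104 and 112 CPM, and with the TCF4 dimer 148, 143 and 135. It reached 288, 202 and 251 CPM with the TCF3 dimer and 362, 249 and 218 with the TCF12 dimer. The 6 samples of these last groups were all above the 15 others. Vim was higher than in the induced monomer line by 1.41 ± 0.14 on the log2 scale with the TCF3 dimer (adjusted p = 9.5e-07), 0.61 ± 0.14 with the TCF4 dimer (adjusted p = 0.0032) and 1.57 ± 0.14 with the TCF12 dimer (adjusted p = 1.1e-07). With the homodimer the difference was 0.22 (adjusted p = 0.34), which passed without TCF12 sample 1 (adjusted p = 0.032) or with only the 2 groups fitted (adjusted p = 0.0022). The TCF12 value was 1.33 without sample 1 of that group.

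Lox, the copper enzyme that starts collagen and elastin cross-linking, was near 1 CPM in the parental, monomer and homodimer groups (means of 0.752 to 1.29 CPM). It rose to 8.76, 5.03 and 8.62 CPM with the TCF3 dimer and to 5.25, 7.14 and 6.78 with the TCF12 dimer. These samples did not overlap with any other group. Relative to the induced monomer line the log2 differences were 2.52 ± 0.27 (adjusted p = 2e-06) and 2.30 ± 0.28 (adjusted p = 3.3e-06). The TCF4 dimer samples, at 2.12, 2.31 and 1.95 CPM, were all above the induced monomer samples but did not pass (0.70 ± 0.32, adjusted p = 0.11). With only the 2 groups fitted this difference did pass (0.69, adjusted p = 0.038). An annotated antisense gene shares 30 bases with Lox (0.63% of its exonic length), and whether counting used strand is not given in the sources used here.

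Fbln1 (chr15:85205949-85286294, plus strand), a fibulin of basement membranes and elastic fibres, was graded across the lines. Its mean was 31.7 ± 0.58 CPM in the uninduced monomer line, 45.8 ± 1.3 in the parental line, 44.9 ± 3.5 in the induced monomer line and 53.6 ± 0.7 with the homodimer. It was 74.2 ± 2.6 with the TCF3 dimer, 90.8 ± 12 with the TCF4 dimer and 100 ± 13 with the TCF12 dimer. The parental and induced monomer groups overlapped, as did the TCF4 and TCF12 groups. Against the induced monomer line it rose in all 3 heterodimer lines, by 0.72, 1.02 and 1.16 on the log2 scale (adjusted p from 3.1e-08 to 2.1e-05). With the homodimer the difference was 0.26 and did not pass (adjusted p = 0.078). It did pass with library size only (adjusted p = 0.022), with only the 2 groups fitted (0.0037) and without TCF12 sample 1 (0.0075).

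Fbln2 (chr6:91212460-91272540, plus strand), which binds fibronectin and basement membrane proteins, was highest in the TCF3 dimer libraries at 22.5, 16.2 and 19.8 CPM. No sample of another group exceeded 13.1 CPM. It was 1.30 ± 0.20 above the induced monomer line (adjusted p = 0.00012), while the TCF4 (0.12) and TCF12 (0.48) dimers did not pass. In the parental samples it was 4.47, 4.12 and 5.55 CPM, the lowest of all groups.

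**Figure D2:**
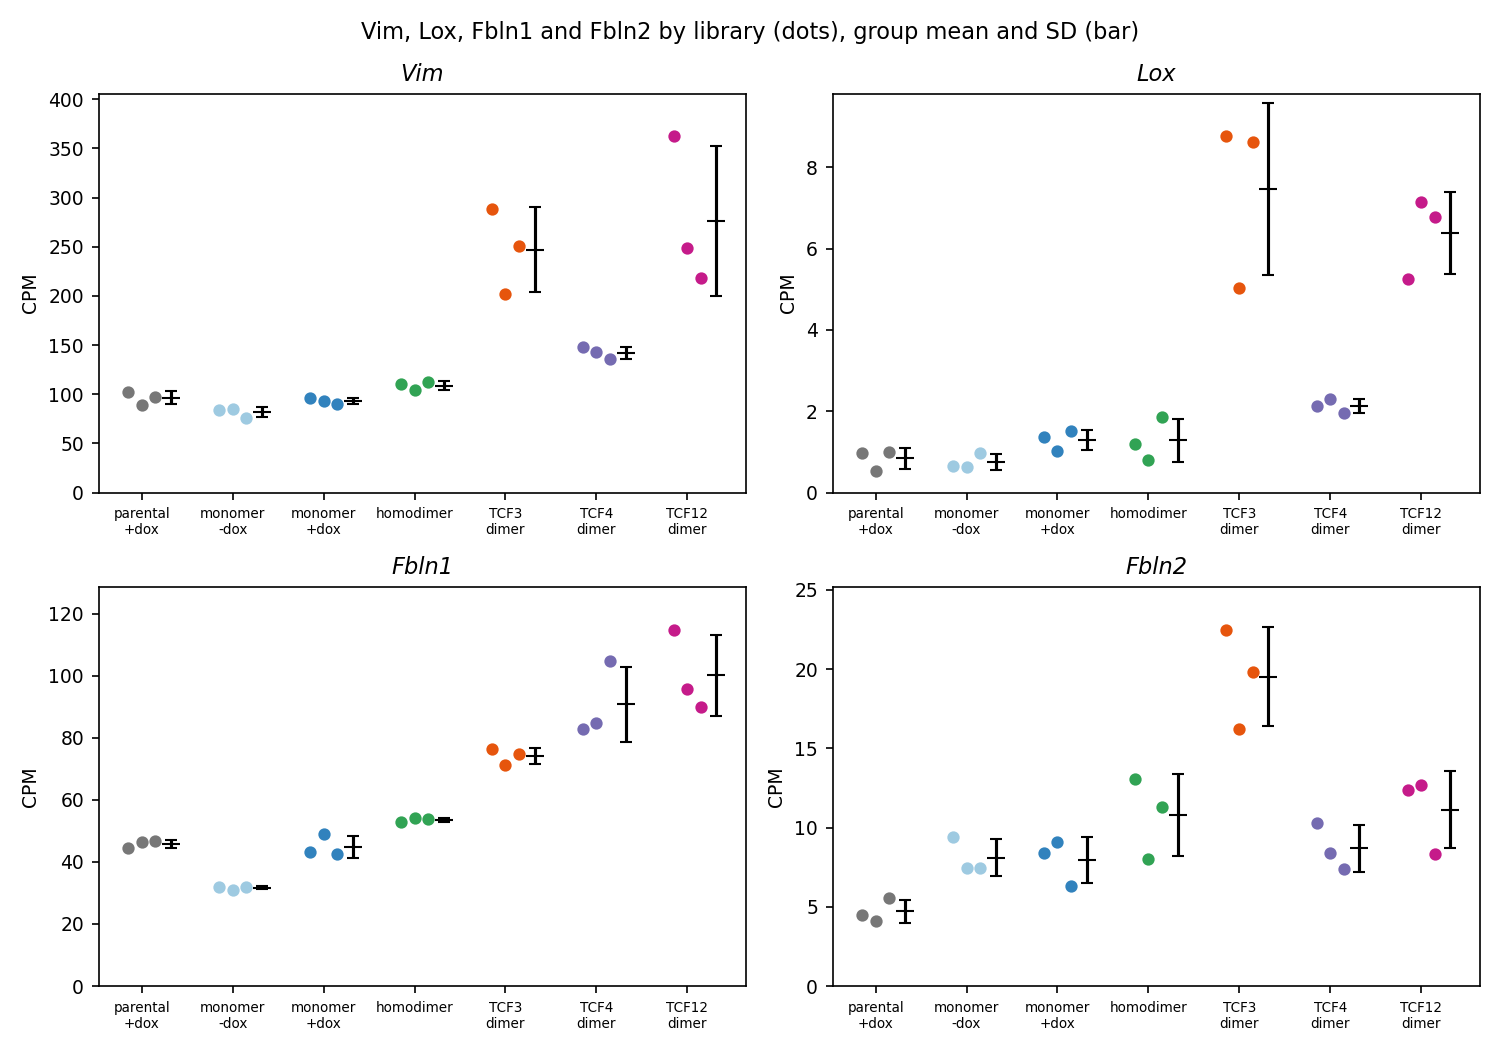
Vim, Lox, Fbln1 and Fbln2 in each library (dots), with group mean and SD (bars), in CPM for the 7 groups. Vim and Lox in the TCF3 and TCF12 dimer libraries lie above all other groups, Fbln2 is highest with the TCF3 dimer, and Fbln1 has its highest means with the TCF4 and TCF12 dimers.

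A different pattern held for osteonectin. Sparc (chr11:55394159-55420080, minus strand), a calcium- and collagen-binding secreted protein, was at 704, 773 and 673 CPM in the uninduced and 654, 749 and 725 CPM in the induced monomer samples. It was 271, 244 and 257 CPM in the parental samples, 190, 212 and 201 with the homodimer, and 192, 209 and 213 with the TCF4 dimer. The TCF12 dimer samples were at 283, 224 and 212 CPM, overlapping the parental range. The TCF3 dimer samples, at 532, 554 and 533 CPM, fell between the monomer line and the rest, with no overlap on either side. Against the induced monomer line Sparc fell by 1.82 ± 0.10 with the homodimer, 1.79 with the TCF4 dimer, 1.57 with the TCF12 dimer and 0.39 with the TCF3 dimer (adjusted p from 7.8e-11 to 0.0045).

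Osteonectin and type IV collagen are made in quantity by the extraembryonic endoderm, the layer that forms the outside of an embryoid body. The summed level of 17 markers of that layer was likewise highest in the monomer line and next highest with the TCF3 dimer. It was 3708 to 4330 CPM in the uninduced and 3660 to 4005 in the induced monomer samples, and 2327 to 2872 with the TCF3 dimer. It was 1094 to 1124 CPM in the parental samples, 725 to 804 with the homodimer, 748 to 793 with the TCF4 dimer and 631 to 847 with the TCF12 dimer. Of the 16 markers tested, 13 were higher and 0 lower in the uninduced monomer line than in the parental line, where 19.9% of all genes passed (10.5% higher, 9.43% lower). Relative to the induced monomer line, 14 were lower with the homodimer, 14 with the TCF3 dimer, 15 with the TCF4 dimer and 14 with the TCF12 dimer, and none was higher. Of all genes 9.31%, 9.36%, 13.0% and 15.5% were lower in these comparisons. The defining factor Sox17 was at 16.9 CPM in the uninduced monomer line, 6.02 in the parental line, 11.1 with the TCF3 dimer and 2.02 to 2.80 in the other dimer lines. Not every marker followed that order: the TCF3 dimer group lay below the parental group in Foxa2 (7.40 against 13.2 CPM), Ttr (4.50 against 9.05) and Afp (0.337 against 0.823). None of the 17 was at 0 in any group. The part of these cells in the Sparc differences was not tested.

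**Figure D3:**
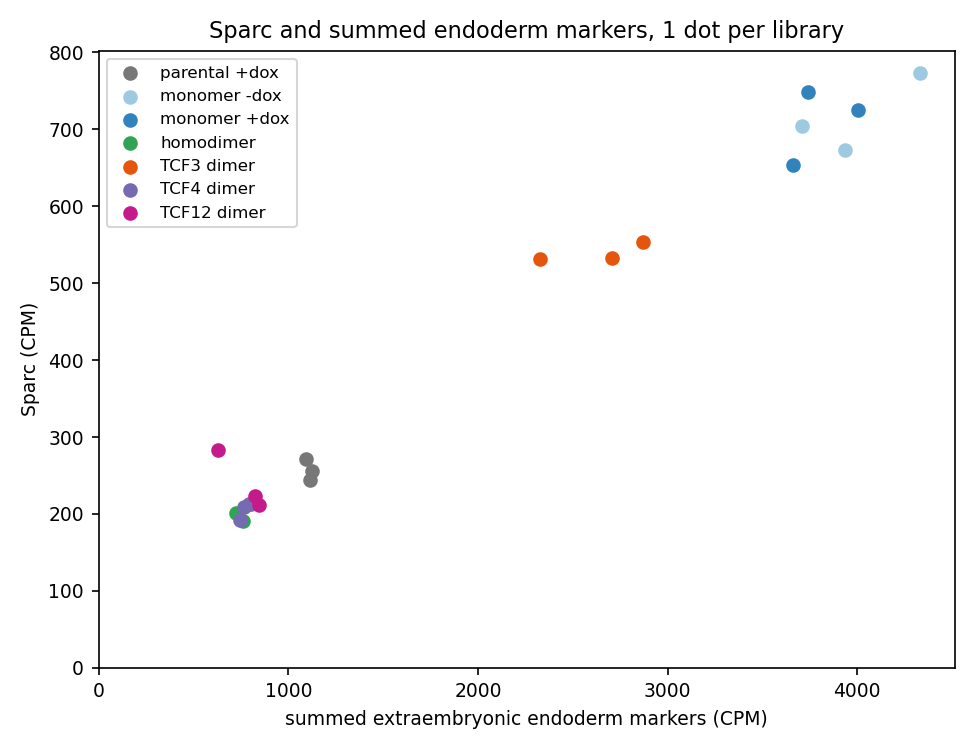
Sparc level (CPM, vertical axis) against the summed level of 17 extraembryonic endoderm markers (CPM, horizontal axis), with 1 point per library coloured by group. The monomer libraries have the highest values on both axes, the TCF3 dimer libraries come next, and the other groups lie at 190 to 283 CPM of Sparc.

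Periostin was a low-level member throughout. Postn (chr3:54359267-54391041, plus strand), a matricellular protein of the same fasciclin family as Tgfbi, was at 4.56, 3.76 and 4.30 CPM in the uninduced and 3.41, 3.49 and 3.44 CPM in the induced monomer samples. The parental samples were at 1.31, 1.41 and 2.72 CPM, and the lowest were the TCF12 dimer samples, at 0.52, 0.49 and 0.40, just above the floor. All monomer samples were above all others. Against the induced monomer line it fell by 1.56 ± 0.31 with the homodimer (adjusted p = 0.0012), 1.32 ± 0.28 with the TCF4 dimer (adjusted p = 0.0015) and 2.85 ± 0.36 with the TCF12 dimer (adjusted p = 4.9e-06). The TCF3 dimer samples, at 1.41, 2.30 and 3.25 CPM, were spread widely and did not pass (-0.57, adjusted p = 0.14).

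Of the 9 genes, fibronectin had the narrowest range of group means when taken as the ratio of highest to lowest, though not in CPM. Fn1 (chr1:71585473-71653280, minus strand) had group means from 225 ± 87 CPM with the TCF12 dimer to 433 ± 43 with the TCF3 dimer. The TCF3 dimer samples, at 411, 405 and 482 CPM, were above all others. The TCF12 dimer samples were at 127, 256 and 293 CPM, and the first of these is the sample that stands apart. Fn1 has the greatest merged length of annotated exons of the 9 genes (11.685 kb). It is also the one in which that sample differed most from its group, by -1.10 on the log2 scale, while Vim was 0.64 higher there. Postn and Fbln5, next in exonic length (8.702 and 6.911 kb), were 0.11 and 0.18 higher in that sample. For Lox (4.778 kb) the difference was -0.38. The part of length in these differences was not tested. Against the induced monomer line Fn1 fell with the TCF12 dimer by 0.69 (SE 0.19, adjusted p = 0.0097). The difference was -0.40 without that sample, with an adjusted p of 0.00074, and the call was lost when only the 2 groups were fitted (adjusted p = 0.19). With the homodimer, TCF3 and TCF4 dimers Fn1 did not pass (-0.28, 0.25 and -0.39), but it did in a fit without that TCF12 sample (adjusted p of 0.014, 0.015 and 0.00029). An annotated antisense gene shares 292 bases with Fn1, 2.5% of its exonic length.

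**Figure D4:**
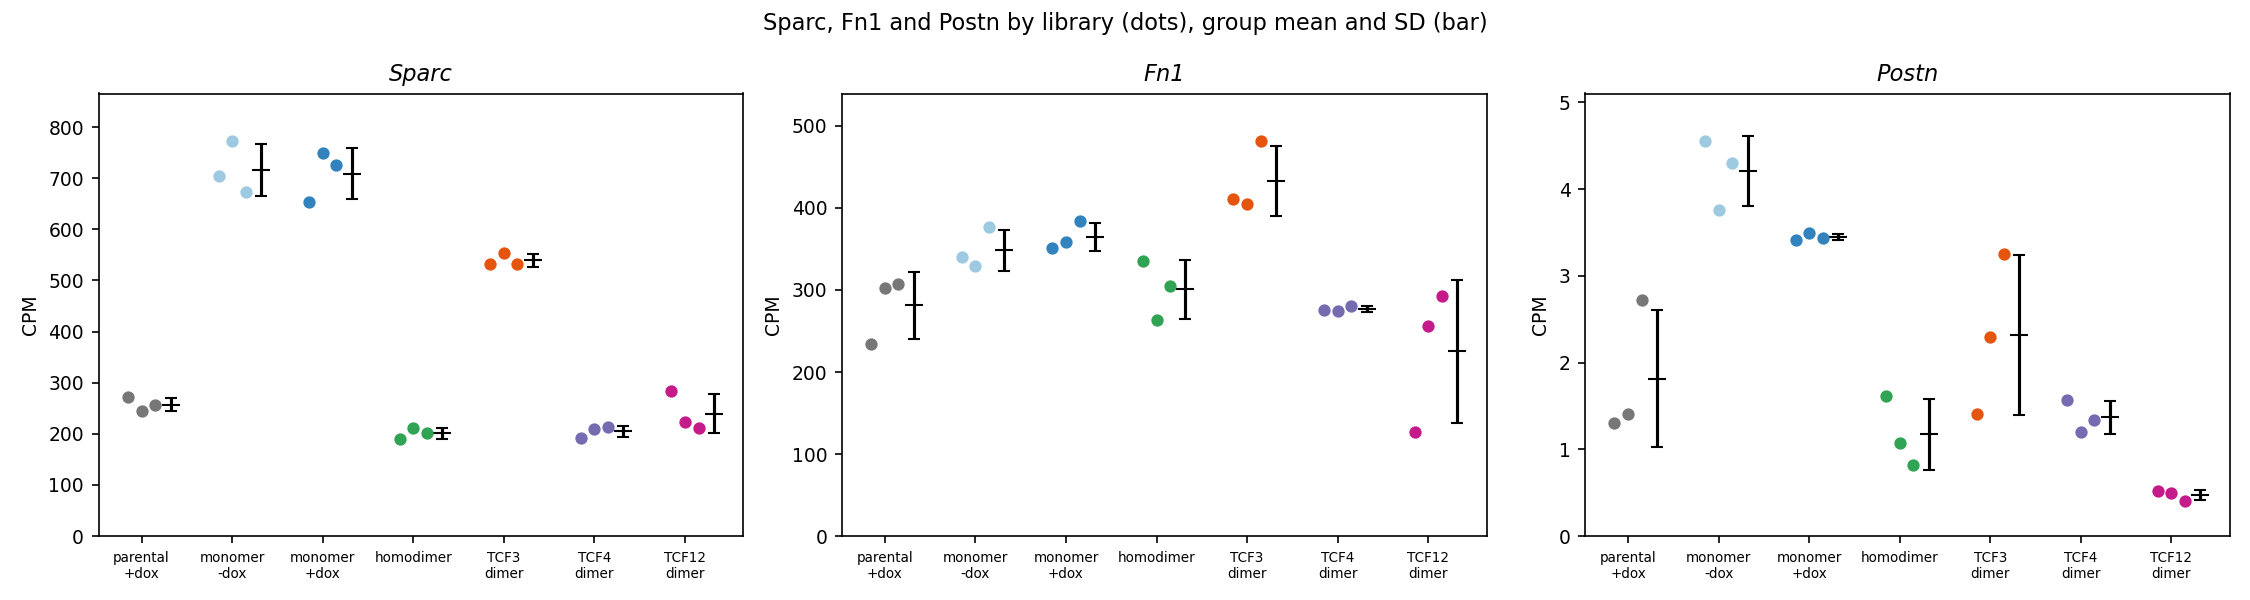
Sparc, Fn1 and Postn in each library (dots), with group mean and SD (bars), in CPM for the 7 groups. Sparc and Postn are highest in the monomer line with and without doxycycline, and the lowest Fn1 value, 127 CPM, is sample 1 of the TCF12 dimer group.

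Counted over the members tested, the homodimer gave 0 higher and 2 lower of 7 relative to the induced monomer line, where 18.5% of all genes passed (9.15% higher, 9.31% lower). Without TCF12 sample 1, 5 members passed in that comparison, with Fbln1 and Vim higher and Fn1 lower in addition. In that fit 4803 genes passed instead of 2642. With only the 2 groups fitted 6 members passed, and so did 4813 of the 13288 genes tested. The TCF3 dimer gave 4 higher and 1 lower, where 22.1% of all genes passed (12.7% and 9.36%). The TCF4 dimer gave 2 and 2, where 27.4% passed (14.5% and 13.0%), and the TCF12 dimer 3 and 3, where 33.5% passed (18.1% and 15.5%). These comparisons share the induced monomer samples. They also share the libraries that chose Fbln5 and Tgfbi, which are described only. Against the parental line the members had the following log2 differences, with no test. Vim was 0.17 with the homodimer and 1.36, 0.56 and 1.52 with the TCF3, TCF4 and TCF12 dimers, and Lox was 0.57, 3.13, 1.31 and 2.91. Sparc was -0.35, 1.07, -0.33 and -0.10, and Postn -0.65, 0.34, -0.41 and -1.94. The Postn value with the TCF4 dimer was 0.01 without parental sample 3. Above the parental line in all 4 were Fbln2 (1.18, 2.05, 0.87 and 1.23) and Fbln1 (0.23, 0.69, 0.99 and 1.13), while Fn1 was 0.10, 0.62, -0.02 and -0.32. Of all genes tested, 8.84%, 28.3%, 12.9% and 27.0% passed in these 4 comparisons.

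The 3 heterodimers were then compared together with the homodimer, a contrast among dimer lines in which all 9 genes were tested. Lox, Vim, Fbln1, Tgfbi and Sparc were higher with the heterodimers and none was lower, 5 of 9 where 14.0% of all genes passed in either direction (7.99% higher, 6.04% lower). Lox was 3.66-fold higher (log2 1.87 ± 0.25, adjusted p = 3e-05) and Vim 1.96-fold (0.97 ± 0.12, adjusted p = 1.6e-05), each with all 9 heterodimer samples above the 3 homodimer samples. The same separation held for Fbln1 (0.71 ± 0.08, adjusted p = 4.9e-06). Tgfbi was higher by 0.58 ± 0.12 (adjusted p = 0.0018), with 1 TCF4 dimer sample below the homodimer samples. The Sparc difference, 0.57 ± 0.08 (adjusted p = 5.3e-05), came with TCF4 and TCF12 dimer samples that overlap the homodimer samples, and only the TCF3 dimer samples lay clear of them. Of the 16 endoderm markers tested, 8 were higher and 0 lower in the same contrast. Fbln5 was 0.30 ± 0.15 higher and did not pass (adjusted p = 0.24). Fn1 did not pass either (-0.005, adjusted p = 0.99), and its difference was 0.08 without TCF12 sample 1 (adjusted p = 0.4).

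Among the heterodimers, TCF3 and TCF4 dimer libraries differed most often. Of the 9 genes, 6 were higher and 1 was lower with TCF3, where 19.7% of all genes passed (11.8% higher, 7.90% lower). Lox (1.82 ± 0.23, adjusted p = 1.6e-05), Sparc (1.40 ± 0.10, adjusted p = 6.9e-09) and Fbln2 (1.18 ± 0.19, adjusted p = 0.00023) had the largest differences. Tgfbi (0.87), Vim (0.80) and Fn1 (0.64) were also higher with TCF3, with adjusted p of 0.00016, 0.00045 and 0.024. Fbln1 was the exception, lower by 0.29 (SE 0.09, adjusted p = 0.032), and this call was lost without any of 4 of the 6 samples (adjusted p up to 0.23). The Fn1 call was lost in 4 such fits as well (adjusted p up to 0.085). Postn did not pass (0.75, adjusted p = 0.074). It did without TCF12 sample 1 (adjusted p = 0.033) and with only these groups fitted (0.041). The 14 endoderm markers that passed were all higher with TCF3. The fibroblast list, 11 genes with collagens and Pdgfrb, had 5 higher and 0 lower of 9 tested, and its summed level was 137 to 165 CPM with TCF3, 89.0 to 95.4 with TCF4 and 116 to 125 with TCF12, against 60.9 to 74.5 in all other samples. Of its defining genes, Col3a1 was at 29.6 CPM with TCF3 and 4.06 in the parental line, while Thy1 was lower with TCF3 (10.0 CPM) and TCF4 (12.5) than in the parental line (18.6), and Lum and Twist2 were below 0.5 CPM in every group. The part of such cells in the member differences was not tested.

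The TCF12 and TCF4 dimer libraries differed in 5 members: Lox (1.60 ± 0.24), Vim (0.96 ± 0.14), Fbln5 (0.75 ± 0.18) and Tgfbi (0.66 ± 0.14) were higher with TCF12, and Postn was lower by 1.52 (SE 0.39). Adjusted p ran from 0.002 (Vim) to 0.041 (Postn), and 3.24% of all genes passed (2.07% higher, 1.17% lower). These calls came from a spread shared over all 21 samples. With only these 6 samples fitted, 0 of the 9 genes and 0 of all genes passed, with adjusted p of 0.22 to 0.63 for these 5. At an unadjusted p under 0.05 that edgeR fit had 898 of 13686 tested genes, 5 of them members. Such a threshold by itself lets through about 5% of genes where nothing differs. DESeq2 on all 21 samples had 901 genes past the adjusted threshold. The Fbln5, Tgfbi and Postn calls were also lost without 1 or another TCF4 dimer sample, with adjusted p up to 0.15, 0.12 and 0.14. Without TCF12 sample 1, Vim was 0.72 and Tgfbi 0.54 higher, with adjusted p of 1.8e-06 and 0.0042.

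Between the TCF3 and TCF12 dimer libraries, Postn (2.28 ± 0.37), Sparc (1.17 ± 0.09), Fn1 (0.94 ± 0.19) and Fbln2 (0.82 ± 0.19) were higher with TCF3, and Fbln1 (-0.43 ± 0.09) and Fbln5 (-0.53 ± 0.18) were lower. That made 6 of 9, where 18.8% of all genes passed (9.71% higher, 9.06% lower), with adjusted p from 7.5e-08 (Sparc) to 0.045 (Fbln5, whose samples overlapped). With only these 2 groups in the fit, 1 of the 9 passed, Sparc. The Fbln5 call was also lost without TCF3 sample 2 or 3 or TCF12 sample 2 (adjusted p up to 0.17). Vim and Lox did not pass, with differences of -0.16 (adjusted p = 0.43) and 0.22 (adjusted p = 0.46), and the Vim difference was 0.08 without TCF12 sample 1. Without that sample Fn1 was 0.65, Fbln1 -0.33 and Sparc 1.30, each still past the threshold, and Tgfbi passed as well (0.32, adjusted p = 0.03, against 0.21 and 0.28 with it). By group means Fbln5 was highest with TCF12 and Sparc, Fbln2 and Fn1 were higher with TCF3, while no difference in Vim or Lox was detected between these groups.

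**Figure D5:**
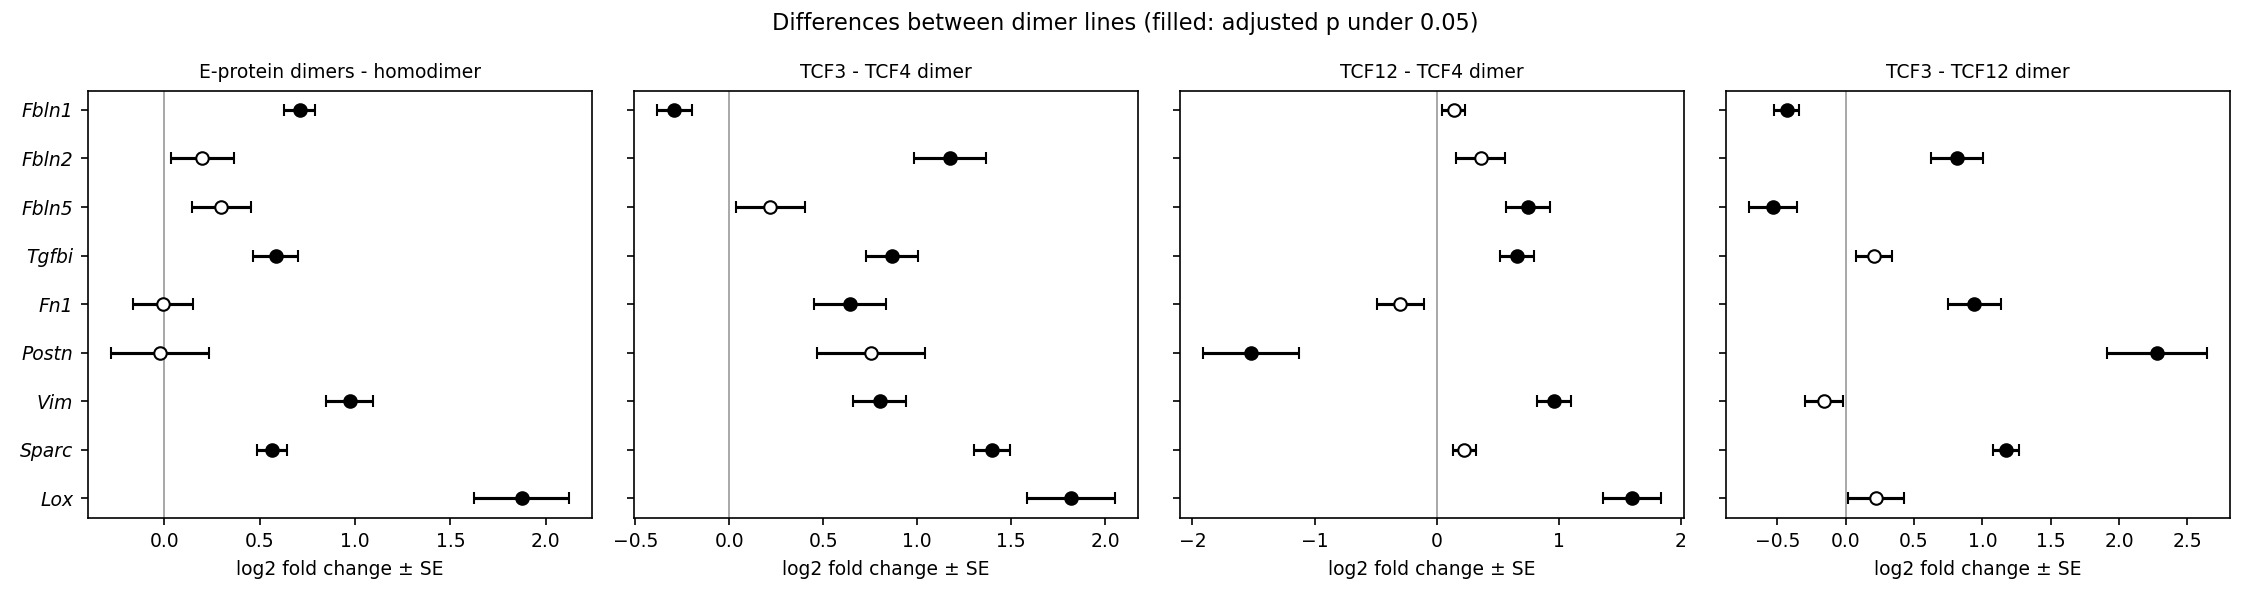
Log2 differences between dimer lines for the 9 genes, with SE as bars and filled points for an adjusted p under 0.05, for heterodimers against homodimer and for each pair of heterodimers. Lox and Vim lie above 0 against the homodimer and against the TCF4 dimer, and Sparc is higher with TCF3 than with either other partner.

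Levels of the 9 genes were compared with each other after division by exonic length. That is the merged length of all annotated exons of a gene, which can exceed the length of the transcripts present. Sparc had the highest CPM per kb in each of the 7 groups, from 53.1 with the homodimer to 189 in the uninduced monomer line. Fn1 was next in the parental, monomer and homodimer groups (24.1 to 31.2 CPM per kb), and Vim in the 3 heterodimer groups (29.95 to 58.3). Fbln5 was the lowest of the 9 in the parental line, at 0.0397 CPM per kb, and reached 3.97 with the TCF12 dimer. Postn was the lowest in all 4 dimer groups, at 0.0544 to 0.266.

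Over the 7 group means of log2(CPM + 0.5), Vim and Lox had the closest patterns among the members (Pearson r = 0.98). Fbln5 and Tgfbi followed at 0.88, Fbln1 and Fbln5 at 0.87, and Fbln1 with Vim and Postn with Sparc both at 0.86, while Fbln1 and Postn ran in opposite directions (-0.79). Over all 21 libraries and 13360 other genes, the pattern most like that of Fbln5 was Boc (r = 0.981), a cell-surface receptor of hedgehog signalling. Nearest to Tgfbi was Cd34 (0.945), a surface protein of blood and vessel precursors, with 5.13 CPM for the parental and 75.4 for the induced monomer line. Sparc was nearest to Kdelr3 (0.989), a retrieval receptor of the secretory pathway, and Col4a2 (0.986), a chain of type IV collagen. Vim was closest to Maged1 (0.972) and the mesenchymal homeobox gene Prrx2 (0.970), and Lox to Kdr (0.951), a receptor for VEGF. Fbln1 was closest to Ssbp3 (0.971), Fbln2 to Tom1l2 (0.911), Fn1 to Gm340 (0.948) and Postn to Man2b2 (0.945). These are descriptions, since the libraries of a group share their line.

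The elastic-fibre proteins among which fibulins and Lox work were counted from a list of 20 genes, 18 of them tested. From the induced monomer line to the dimer lines, 5 rose and 2 fell with the homodimer, 10 and 1 with the TCF3 dimer, 9 and 3 with the TCF4 dimer, and 10 and 4 with the TCF12 dimer, where 18.5%, 22.1%, 27.4% and 33.5% of all genes passed. Their median log2 differences were 0.38, 0.62, 0.58 and 0.68, with medians over all genes of 0.00, -0.02, 0.01 and 0.05. Fbn2, a fibrillin of embryonic microfibrils, rose from 2.88 to 26.2 CPM with the TCF3 dimer (log2 3.17 ± 0.25, adjusted p = 4.3e-08), and by 2.25 and 3.00 with the TCF4 and TCF12 dimers. Mfap4, a microfibril protein, rose by 2.38, 2.05 and 2.86, and Mfap2 by 1.64, 1.60 and 1.92. With the homodimer Fbn2 rose by 1.62 ± 0.27 (adjusted p = 0.00026), and Loxl2, a relative of Lox, fell by 1.42. Loxl2 was at 27.0 CPM in the induced monomer line, 10.1 with the homodimer and 11.3 in the parental line. Against the homodimer, the heterodimers had 5 genes higher and 1 lower, where 14.0% of all genes passed (7.99% higher, 6.04% lower). The largest differences were those of the microfibril protein Emilin1 (1.72 ± 0.16, adjusted p = 4.4e-07) and Mfap4 (1.70).

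Actin-binding and filament genes, the company of vimentin, gave 9 higher and 1 lower of 19 tested with the homodimer against the induced monomer line, 5 and 0 with the TCF3 dimer, 11 and 2 with the TCF4 dimer and 13 and 2 with the TCF12 dimer. Of all genes 18.5%, 22.1%, 27.4% and 33.5% passed in these comparisons, so the TCF3 count lies near the background. Without TCF12 sample 1 the TCF3 count was 8 higher and 2 lower, in a fit where 5896 genes passed instead of 3162. Myl9, a smooth muscle myosin light chain, rose by 2.06, 2.16 and 2.52 with the homodimer, TCF4 and TCF12 dimers, and Tagln, an actin-binding protein of smooth muscle, by 1.73 with TCF12. With the TCF3 dimer the largest rise was Cald1, caldesmon, by 0.93 ± 0.13 (adjusted p = 2.6e-05). Between TCF3 and TCF4, 2 were higher with TCF3 and 6 lower, where 19.7% of all genes passed (11.8% higher, 7.90% lower). Myl9 was lower by 1.72 and Tagln by 1.07. Lmna, the nuclear lamin, was higher with TCF3 by 1.02 ± 0.19 (adjusted p = 0.00061). The contrast of the heterodimers with the homodimer gave 5 higher and 1 lower, where 14.0% of all genes passed (7.99% higher, 6.04% lower). Without TCF12 sample 1 it gave 6 and 9, in a fit where 4173 genes passed instead of 2007.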

How the data were processed

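The authors deposited 1 table of raw read counts per gene symbol for each of the 21 samples, and per the submitters' processing notes FastQC, TopHat2, HTSeq and the builds mm10 and GRCm38 were used. The annotation, versions and strand setting are not given in the sources used here. RNA libraries were made with a TruSeq mRNA kit, per the labels' protocols. Symbols had been turned into dates (25 of them) in 18 of the tables, but not in the 3 TCF12 dimer tables, so tables were joined by position. That difference in handling and the group cannot be told apart.

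All 21 samples entered 1 edgeR 4.0.16 quasi-likelihood fit (limma 3.58.1, R 4.3.3) with a mean per group, TMM factors and filterByExpr defaults (count 10, total 15). P-values were adjusted by Benjamini-Hochberg over 14311 genes, with 0.05 as the threshold for passing. Errors of log2 differences are standard errors derived from F, and CPM errors are SD over 3 samples. The fit was tested on simulated data. Replicate tables were compared and 0 pairs were identical.

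The members and gene lists were chosen with earlier results of these data known. Members were named in every comparison, up to 3 genes per list by size of change, and per member the genes with the highest correlation of log2(CPM + 0.5) among those with a mean of at least 1 CPM. Some listed genes are not reported here by name. No p is given for any member between dimers and the parental line, nor for Fbln5 and Tgfbi between dimers and a group without one or between the monomer and parental lines. The last of these had been planned as a test. Exonic lengths came from GENCODE M21 and positions and promoters from RefSeq, both of GRCm38. Sequence of Lox and of Fn1 was not analysed here. Alternatives were DESeq2 1.42.0, other factors, filters, groups and a replicate block, and leaving out each sample. List counts without 1 sample were added after seeing the data.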

Additional observations from a re-analysis of the deposited data

How the results depend on the processing

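Fits of only the groups compared gave 682 for monomer induction (286 in the fit of 21 samples), 5029 and 5106 for the uninduced and induced monomer against the parental line (2854 and 2861), and 4813, 5715, 6346 and 1516 for the homodimer, TCF3, TCF4 and TCF12 dimers against the induced monomer (2642, 3162, 3928 and 4799). There were 1310 for heterodimers against homodimer (2007), 5660 for TCF3 against TCF4 (2819), 0 for TCF12 against TCF4 (464) and 236 for TCF3 against TCF12 (2686). Against the parental line they gave 3113, 6674, 4010 and 824 (1265, 4057, 1839 and 3864). For TCF12 against TCF4, DESeq2 gave 901, library size only 306 and no filter 1443. Of the members, 6 instead of 2 passed for the homodimer against the induced monomer, 0 instead of 5 for TCF12 against TCF4 and 1 instead of 6 for TCF3 against TCF12. Directions turned where a difference was near 0: Fbln2 on induction (0.0194 with library size only, 0.00176 with only the groups compared), Sparc on induction (0.0135, library size only), Lox with the homodimer against the monomer (0.00613, library size only) and Fn1 for heterodimers against homodimer (0.00135, no filter). Fn1 for TCF3 against TCF4 (adjusted p = 0.051) and Fbln5 for TCF12 against TCF4 (0.055) and TCF3 against TCF12 (0.094) were lost with library size only, and Fbln1 for TCF3 against TCF4 without a filter (0.078), all by edgeR. Replicate numbers did not pair samples (mean correlation 0.0214 over 63 same-numbered pairs, -0.0102 over 126 others), and the replicate block gave 264 genes for induction and moved no count by over 1.5 times.

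Leaving out 1 sample gave ranges of passing genes, the highest mostly without sample 1 of the TCF12 group. They were 173 to 890 for induction, 2022 to 5312 and 2192 to 5073 for the uninduced and induced monomer against parental, 2002 to 4803, 2066 to 5896, 3070 to 6561 and 3681 to 6417 for the dimers against the monomer in the order above, 1305 to 4173 for heterodimers against homodimer, 1959 to 5828 for TCF3 against TCF4, 49 to 4868 for TCF12 against TCF4, 1455 to 4986 for TCF3 against TCF12, and 919 to 2948, 3099 to 6700, 1249 to 4046 and 2590 to 6165 for the dimers against parental. Members passing ranged over 2 to 3, 3 to 6, 1 to 4, 2 to 5, 5 to 6, 4 to 5, 6 to 7, 5 to 5, 5 to 8, 2 to 8 and 5 to 7 in the 11 tested comparisons. Signs changed for Fbln2 (-0.119 to 0.130) and Sparc (-0.0617 to 0.0389) on induction, Lox in the uninduced monomer against parental (-0.413 to 0.00760) and in the homodimer against the monomer (-0.385 to 0.245), Fbln2 with TCF4 against the monomer (-0.0271 to 0.238), Fn1 (-0.101 to 0.0838) and Postn (-0.218 to 0.252) for heterodimers against homodimer, and Vim for TCF3 against TCF12 (-0.277 to 0.0768). None of these passed in the fit of 21 samples. Signs also changed, in differences given no test, for Fbln5 in the uninduced monomer against parental (-0.849 to 1.01), Postn (-0.599 to 0.0123) and Fn1 (-0.137 to 0.0447) with TCF4 against parental, and Fn1 with the homodimer against parental (-0.0176 to 0.190). The cause of each change was not tested.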

Other observations

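The list of TGF-beta ligands, receptors and response genes (11 genes, all tested) had 6 members higher and 2 lower with the TCF3 dimer than in the induced monomer line, where 22.1% of all genes passed. Tgfb2, a ligand, rose from 0.97 to 4.29 CPM (log2 2.14 ± 0.28, adjusted p = 2.1e-05, edgeR's quasi-likelihood test) and Tgfbr3, the co-receptor betaglycan, from 18.1 to 37.3 CPM (1.04 ± 0.13, adjusted p = 1.3e-05). With the TCF4 dimer 2 were higher and 1 lower (27.4% of all genes passed). Without sample 1 of the TCF12 group it was 3 and 2, where 6561 genes passed instead of 3928. With the TCF12 dimer 3 were higher and 2 lower (33.5%), Tgfb2 by 1.95 ± 0.29 (adjusted p = 3.9e-05). The homodimer gave 1 higher and 0 lower (18.5%). Without sample 1 of the TCF12 group it gave 4 and 1, where 4803 genes passed instead of 2642. The gene that passed in the fit of all samples was the receptor Tgfbr2, at 16.9 against 11.2 CPM, which was also the single gene of the list to pass on induction of the monomer line (0.72 ± 0.18, adjusted p = 0.036).

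Among matricellular proteins and proteoglycans (18 listed, 16 tested), the testican genes Spock1 and Spock2 moved in opposite directions from the induced monomer line. Spock1 fell from 7.01 CPM in the induced monomer line to 0.567 with the homodimer (log2 -3.61 ± 0.25, adjusted p = 5.6e-09), 0.61 with the TCF4 dimer and 0.50 with the TCF12 dimer, and to 4.14 with the TCF3 dimer. Spock1 was already at 8.67 CPM in the uninduced monomer line, against 1.17 in the parental line. Spock2 rose from 26.5 to 75.3 CPM with the homodimer, 88.0 with the TCF3 dimer and 62.2 with the TCF4 dimer. It was at 26.9 CPM in the uninduced monomer line and 39.2 in the parental line. Counts higher and lower were 5 and 5 with the homodimer, 3 and 1 with the TCF3 dimer, 5 and 4 with the TCF4 dimer and 5 and 6 with the TCF12 dimer. Of all genes 18.5%, 22.1%, 27.4% and 33.5% passed in these comparisons, so the TCF3 count lies near the background. It was 6 and 2 without sample 1 of the TCF12 group, in a fit where 5896 genes passed instead of 3162.

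The haemato-endothelial list, which holds Cd34 and Kdr, summed to 24.5 to 33.1 CPM in the parental and uninduced monomer samples and to 100 to 104 in the induced monomer samples. It was 129 to 138 CPM with the homodimer, 155 to 201 with the TCF3 dimer, 80.1 to 86.4 with the TCF4 dimer and 159 to 187 with the TCF12 dimer. Most of these differences lay in Cd34, at 5.13 CPM in the parental line, 75.4 in the induced monomer line, 113 with the homodimer and 133, 58.7 and 146 with the TCF3, TCF4 and TCF12 dimers. Pecam1 was at 8.45, 8.66 and 8.08 CPM in the first 3 of these, and at 11.4, 6.17 and 3.99 with the TCF3, TCF4 and TCF12 dimers. Its blood genes Gata1 and Hbb-bh1 were at or below 1.15 CPM in every group. The pluripotency and epiblast list summed to 4259 to 4427 CPM in the parental samples and 2137 to 2410 with the TCF3 dimer. Most of that difference lay in Dnmt3b, with means of 2666 CPM in the parental group and 1054 with the TCF3 dimer. Utf1 (244 and 261 CPM) and Otx2 (192 and 213) were higher with the TCF3 dimer, and the other listed genes were lower. The primitive streak list summed to 182 to 216 CPM in the parental samples and at most 46.5 in any other sample, and the neural list to 121 to 279 over all samples.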
